A study of Mus musculus with 7 samples.

Results

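The SLAM receptors are a family of immunoglobulin-like proteins on the surface of blood cells, and SAP, encoded by Sh2d1a, is the small adaptor through which several of them signal. Their transcripts were followed here by 1-colour microarray in antigen-activated mouse CD8 T cells with and without the kinase Lck. The members were taken by gene name in the scanner files: Slamf1, Slamf6, Slamf7, Ly9, Cd48, Cd84, Cd244 and Sh2d1a. These are 8 of 27387 named genes, read by 12 of 55681 probes. All 12 probes were well above background on all 7 arrays.

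Most SLAM receptors bind a copy of themselves on a neighbouring cell, so that T cells can engage one another through them. CD244 is the exception and binds CD48, which has a lipid anchor in place of a cytoplasmic tail. The tails of the other receptors carry tyrosine-based switch motifs. In several of these receptors SAP binds the motifs and recruits the kinase Fyn, a relative of Lck. In CD8 T cells and NK cells the family is known for tuning cytotoxicity and adhesion between lymphocytes.

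The cells were lymph node CD8 T lymphocytes that carried 1 copy of the OT-1 receptor transgene (OT-1het) on a Rag-/- background, activated for 24 h with 100 nM of the ovalbumin peptide SIINFEKL. The 4 WT samples had no further change given. The 3 Lck-/- samples lacked endogenous Lck and had carried a doxycycline-dependent Lck, whose expression was removed by 7 days without doxycycline in the diet. Not given in the labels are the promoter of that construct, the age of the mice and any doxycycline feeding of the WT mice, so effects of diet or construct and effects of the missing kinase cannot be told apart. The series calls the samples biological replicates.

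All 7 arrays lay on 1 slide, with 46.6% to 61.1% of spots well above background and none saturated. WT 3 had 1549 spots flagged as outliers, against 166 to 557 on each of the other arrays. All values below are log2 levels in which 0 is the 75th percentile of the array. The only Lck probe did not part the groups as labelled. Its level was 7.44, 7.67, 7.36 and 6.04 in the 4 libraries called WT, in replicate order, while the 3 called Lck-/- gave 8.02, 6.21 and 6.17. Lck-/- 1 was thus the highest array and WT 4 the lowest, and members are also given without these 2 arrays. The labels do not give the deleted part of Lck, and a probe outside that part checks nothing. The T cell genes Cd8a, Cd8b1, Cd3d, Cd3e and Cd3g were well above background on all 7 arrays.

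Probe sequences matter for this family because a receptor with several transcripts can keep or lose the part that binds SAP. The 60-base probes were therefore searched for the codons of the immunoreceptor tyrosine-based switch motif, in a forward frame without stop codons. Of the 12 member probes 2 held it, against 0.298% of all 55681 probes. The tails of most of these receptors are known to carry the motif, so the choice of members made a higher share likely. The 2 probes are shown 5′ to 3′ with the codons of the motif in capitals, at bases 29 to 46 of each probe.
Slamf6 A_55_P2182467: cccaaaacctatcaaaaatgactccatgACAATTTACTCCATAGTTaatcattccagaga
Ly9 A_55_P1989976: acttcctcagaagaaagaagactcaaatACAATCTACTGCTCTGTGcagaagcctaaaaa
The Slamf6 probe lies on mm9 chromosome 1, 173871767 to 173871826, and the Ly9 probe at 173523555 to 173523614. The second Slamf6 probe, A_52_P507578 at 173873620 to 173873679, lies downstream in the same transcript and is listed in the files for 1 of the 2 Ensembl transcripts that the switch-motif probe is listed for. A match of this kind describes the letters of the probe and shows no binding.

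Between the groups, no member passed the test. Of 8 members, 0 had an adjusted p under 0.05 (limma, Benjamini-Hochberg over 16460 genes), as did 0% of all genes tested. At an unadjusted p under 0.05 there were 2, Slamf7 and Cd48, both higher in Lck-/-, where the share over all genes was 7.06% (5.04% higher and 2.02% lower). With the array median as reference Slamf6 alone, lower in Lck-/-, had such a p, against 6.14% of all genes, and with array weights there were 4, Slamf1, Slamf6, Slamf7 and Cd48, against 9.96%. The groups did not overlap for Slamf7 and Cd48, as for 7.29% of all genes (5.34% higher and 1.95% lower in Lck-/-). For Cd48 this holds only with an outlier spot on WT 3 left out. The other 6 members overlapped. With WT 4 and Lck-/- 1 left out, 0 members passed and 2, Slamf6 and Slamf7, had an unadjusted p under 0.05, against 0.334% and 10.5% of all genes. Differences, given throughout as Lck-/- minus WT, were positive for 6 members and negative for Slamf1 and Slamf6, while 59.2% of all genes were positive. Their median was 0.17, against 0.05 over all genes tested. With the array median as reference the median of all genes was -0.15 and that of the members -0.03. In bulk RNA, fewer cells that carry a transcript and less of it per cell cannot be told apart.

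**Figure D1:**
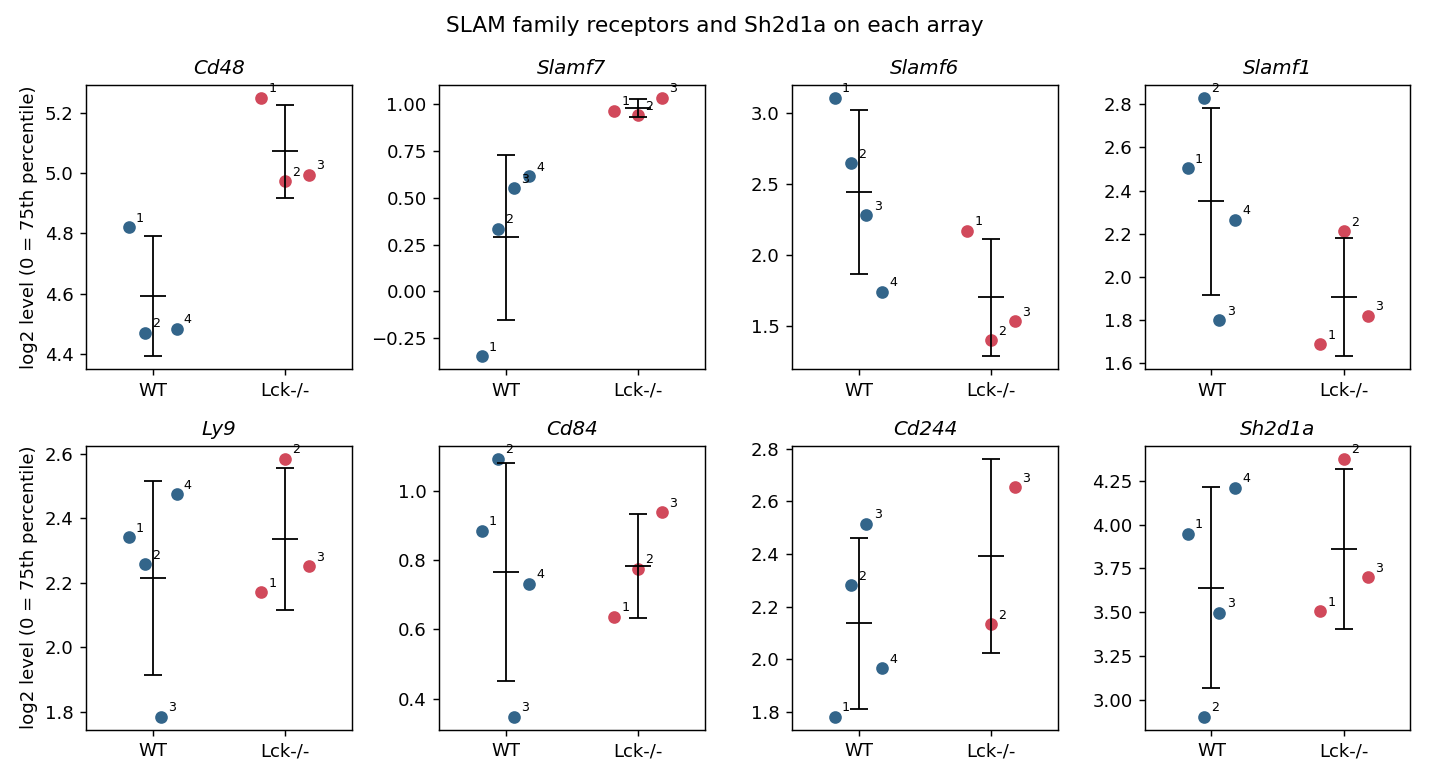
Log2 level of each member (0 is the 75th percentile of the array) on the 4 WT and 3 Lck-/- arrays, numbered by replicate, with bars for mean ± SD; each panel has its own scale. For Slamf7 and Cd48 every plotted Lck-/- point lies above every plotted WT point, and the other 6 members overlap.

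The ligand of the CD244 pair was among the separate members. Cd48, which encodes the lipid-anchored ligand, read 4.82, 4.47 and 4.48 on WT 1, WT 2 and WT 4, and 5.25, 4.97 and 4.99 on Lck-/- 1 to Lck-/- 3. Every Lck-/- value lay above every WT value, but the spot on WT 3 was flagged as a non-uniform outlier and left out. The means were 4.59 ± 0.20 (SD, n = 3) for WT and 5.07 ± 0.15 (SD, n = 3) for Lck-/-, so that the difference came to 0.48 (SE 0.17, 95% interval 0.07 to 0.89, limma adjusted p = 0.673), or 1.39-fold. The flagged spot read 5.25, level with the highest Lck-/- array, and with it the difference was 0.31. The second Cd48 probe, with a value on every array, read 3.92, 3.38, 3.43 and 3.68 in WT and 3.77, 4.04 and 3.84 in Lck-/-. There WT 1 lay between the Lck-/- arrays, and the difference was 0.28 (SE 0.18, limma adjusted p = 0.814). Without WT 4 and Lck-/- 1 the difference of the first probe was 0.34.

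Its receptor Cd244, known as 2B4 on NK cells and cytotoxic T cells, read 1.78, 2.28, 2.51 and 1.97 in WT and 2.13 and 2.65 on Lck-/- 2 and Lck-/- 3. The groups overlapped, with a difference of 0.26 (SE 0.26, 95% interval -0.37 to 0.88, limma adjusted p = 0.894). The spot on Lck-/- 1 was flagged as a non-uniform outlier and stands outside this fit. It read 4.55, far above the other 6 arrays, and with it the difference was 0.98 (SE 0.54). The position of the Lck-/- group for Cd244 therefore rests on 2 arrays.

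Slamf7, also called CRACC, is a self-binding receptor of NK cells and activated lymphocytes. It read -0.34, 0.33, 0.55 and 0.62 on WT 1 to WT 4 and 0.96, 0.94 and 1.03 on Lck-/- 1 to Lck-/- 3. All 3 Lck-/- arrays lay within 0.1 of one another and above all 4 WT arrays, among which WT 1 was lowest. The means were 0.29 ± 0.44 (SD, n = 4) for WT and 0.98 ± 0.05 (SD, n = 3) for Lck-/-, so that the difference came to 0.69 (SE 0.24, 95% interval 0.14 to 1.24, limma adjusted p = 0.651), or 1.61-fold. Without WT 1 the difference was 0.48, and without both arrays whose Lck signal went against the label it was 0.81. This was the only member with an unadjusted p under 0.05 in the main comparison and again with those 2 arrays left out.

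Slamf6, also called Ly108 in mice, is a self-binding receptor that couples to SAP. Its switch-motif probe read 3.1, 2.64, 2.28 and 1.74 on WT 1 to WT 4 and 2.17, 1.40 and 1.53 on Lck-/- 1 to Lck-/- 3. For this probe the 3 highest arrays were WT, while WT 4 lay below Lck-/- 1. The groups thus overlapped here through the same 2 arrays that Lck set against their labels. The means were 2.44 ± 0.57 (SD, n = 4) for WT and 1.70 ± 0.41 (SD, n = 3) for Lck-/-, so that the difference came to -0.74 (SE 0.33, 95% interval -1.51 to 0.04, limma adjusted p = 0.712). Without WT 4 and Lck-/- 1 it was -1.21 (SE 0.27, limma adjusted p = 0.182), which missed the threshold. These arrays were doubted for their Lck signal, not for Slamf6.

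The downstream Slamf6 probe read 1.24, 1.30, 0.44 and 0.85 in WT and 0.31, 0.48 and 0.65 in Lck-/-, which gave a difference of -0.48 (SE 0.24, limma adjusted p = 0.756). On this probe Lck-/- 1 was the lowest array of all. The groups overlapped through WT 3, which lay below Lck-/- 2 and Lck-/- 3, and not through WT 4. Subtracting the downstream probe from the switch-motif probe on the same array removes the scaling of the array. That within-array value was 1.86, 1.34, 1.84 and 0.90 on WT 1 to WT 4 and 1.86, 0.92 and 0.88 on Lck-/- 1 to Lck-/- 3. By label it did not differ beyond the spread (-0.26, exact permutation test over 35 splits, two-sided p = 0.657, where the smallest possible p is 0.0286). The 3 lowest values came from WT 4, Lck-/- 2 and Lck-/- 3, which were also the 3 arrays with the lowest Lck signal. This comparison was chosen after the values were seen. Whether Lck bears on the Slamf6 transcripts was not tested. Probes differ in how brightly they bind, so the value shows unequal change between arrays and gives no share of transcripts.

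**Figure D2:**
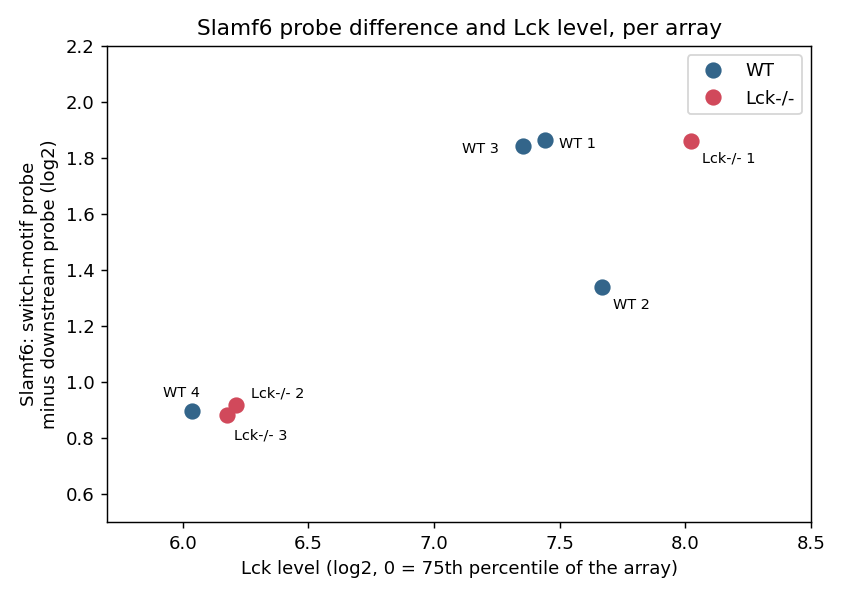
For each of the 7 arrays, the log2 level of Lck (x) against the Slamf6 switch-motif probe minus the downstream probe (y, log2), coloured by label. WT 4, Lck-/- 2 and Lck-/- 3 sit together at 0.90, 0.92 and 0.88, and the other 4 arrays lie between 1.34 and 1.86.

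Slamf1, the founding member of the family and a self-binding receptor, was the other gene with a negative difference. It read 2.50, 2.83, 1.80 and 2.27 in WT and 1.69, 2.21 and 1.82 in Lck-/-. WT 3 lay among the Lck-/- arrays, while WT 1 and WT 2 were the highest of all. The means were 2.35 ± 0.43 (SD, n = 4) for WT and 1.91 ± 0.27 (SD, n = 3) for Lck-/-, so that the difference came to -0.44 (SE 0.26, 95% interval -1.04 to 0.15, limma adjusted p = 0.781). Without WT 3 it was -0.63 and without WT 2 -0.28.

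The self-binding receptors Ly9 and Cd84 were the closest to 0. Ly9, also called CD229, read 2.34, 2.26, 1.78 and 2.47 in WT and 2.17, 2.58 and 2.25 in Lck-/-, with the lowest array WT 3 and the highest Lck-/- 2. The difference was 0.12 (SE 0.20, 95% interval -0.35 to 0.59), and it turned to -0.084 with the array median as reference. The Ly9 switch-motif probe, which read 1.76, 1.65, 1.47 and 1.85 in WT and 1.53, 1.97 and 1.78 in Lck-/-, followed the same order of extremes, with a difference of 0.079 (SE 0.17). Cd84 read 0.88, 1.09, 0.35 and 0.73 in WT and 0.64, 0.78 and 0.94 in Lck-/-, all within the WT range. Its difference was 0.02 (SE 0.20, 95% interval -0.44 to 0.47), or -0.19 with the array median as reference, and its dim second probe gave -0.06 (SE 0.15).

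The adaptor gene Sh2d1a varied more among WT arrays than between the groups. It read 3.95, 2.90, 3.50 and 4.21 on WT 1 to WT 4 and 3.51, 4.38 and 3.70 on Lck-/- 1 to Lck-/- 3. The lowest array was WT 2 and the 2 highest were Lck-/- 2 and WT 4, from different groups. The means were 3.64 ± 0.57 (SD, n = 4) for WT and 3.86 ± 0.46 (SD, n = 3) for Lck-/-, so that the difference came to 0.22 (SE 0.34, 95% interval -0.57 to 1.02, limma adjusted p = 0.949). Its interval is the widest of the 8 members and includes a 2-fold higher level in Lck-/-. Without WT 2 the difference was -0.02.

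**Figure D3:**
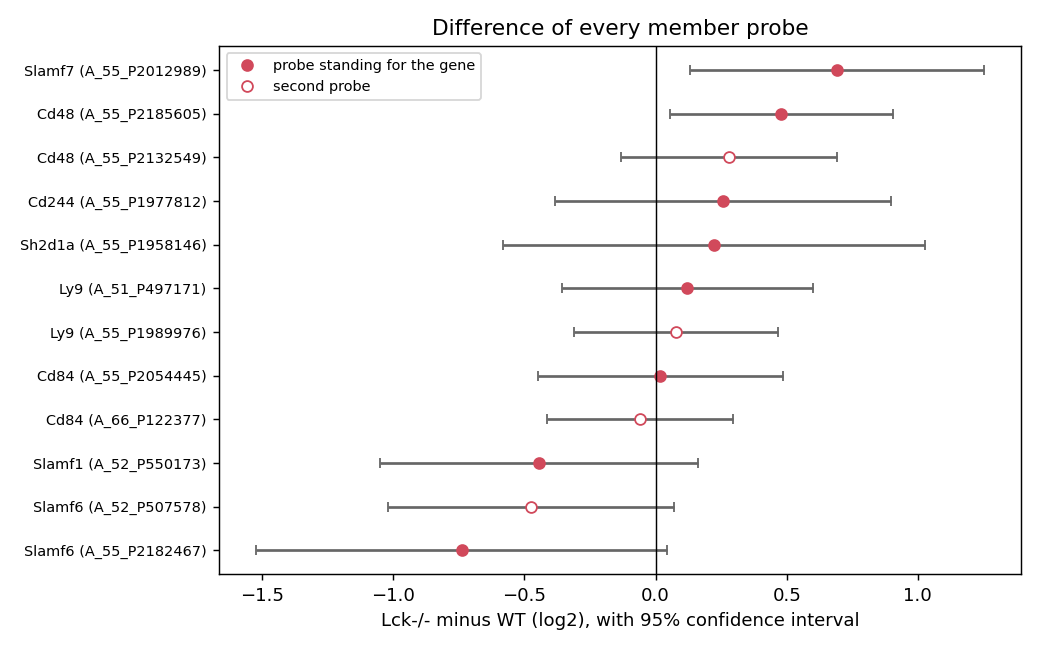
Difference between Lck-/- and WT (log2) of each of the 12 member probes with its 95% confidence interval from the fit over all probes; open points are second probes of a gene. The intervals of Slamf7 and 1 Cd48 probe lie above 0 before adjustment, and those of the other 10 probes include 0.

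The 7 receptor genes share a position that the choice of members did not use. Their probes lie within 358 kb of mm9 chromosome 1, from 173515388 to 173873679, in the order Cd244, Ly9, Slamf7, Cd48, Slamf1, Cd84 and Slamf6. Probes of neighbouring genes were between 3.30 kb and 95.1 kb apart. The separate members Slamf7 and Cd48 are neighbours, 67.1 kb apart, and Slamf1 and Slamf6, with negative differences, have Cd84 between them. Cd48 was separate only with its outlier spot on WT 3 left out, and its second probe overlapped. Only 1 other named gene, Gm10521, had a probe in the interval, and it was not well above background on any array. Sh2d1a lies on chromosome X, with its probe at 39875116 to 39875175.

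Promoter sequence was looked at because neighbouring genes of 1 cluster had differences of both signs, none past the threshold. RefSeq promoters of build GRCm38.p6, each 300 bases long, matched 6 of the 8 members, and Ly9 and Sh2d1a had no match. The site of AP-1, a Fos and Jun factor induced by T cell receptor signals, was searched as TGANTCA, which reads alike on both strands. It was found once each for Slamf7, Cd84 and Cd244, at -42, -229 and -122 from the start site, and in none of the others. Of all 32851 promoters 7.81% held it. The 41 bases around each match are shown 5′ to 3′ on the gene's strand, with the site in capitals.
Slamf7: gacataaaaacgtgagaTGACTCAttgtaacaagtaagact
Cd84: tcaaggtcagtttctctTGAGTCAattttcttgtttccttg
Cd244: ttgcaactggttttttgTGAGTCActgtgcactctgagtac
These lie at chr1:171649018-171649058 on the minus strand, and at chr1:171839451-171839491 and chr1:171559054-171559094 on the plus strand. The 3 genes had differences of 0.69, 0.02 and 0.26. Among matched genes without the site, Cd48 differed by 0.48, Slamf1 by -0.44 and Slamf6 by -0.74. Whether the site bears on these differences was not tested. The sites are matches of letters, and binding was not measured.

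Other genes of the pathway were taken from a list of 25 receptors, adaptors, kinases and phosphatases that act with the SLAM family. Of these 22 were tested, and 0 passed (limma, adjusted over all genes). At an unadjusted p under 0.05, Lat was higher and Slamf9 lower, or 2 of 22, where 7.06% of all genes did so. Differences were positive for 14 and negative for 8, where 59.2% of all genes were positive. The median of the partners was 0.10, or -0.10 when arrays were centred on their median. The related adaptor genes Sh2d1b1 and Sh2d1b2, which encode EAT-2 proteins of NK cells, were not well above background on any array. Zbtb16, a factor of innate-like T cells that depend on SAP, was above background on 2 arrays and not tested.

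The 4 partners with the highest signal were all well above background on every array. Cd2, a second receptor for CD48, read 6.34, 6.16, 6.09 and 5.78 in WT and 6.95, 6.25 and 6.37 in Lck-/-, with a difference of 0.43 (SE 0.21). Its highest array was Lck-/- 1 and its lowest WT 4, the same extremes as for Lck. Vav1, an exchange factor, differed by 0.18 (SE 0.19) and Ptpn6, which encodes the phosphatase SHP-1, by 0.02 (SE 0.16). Lat, the scaffold that CD244 also engages, read 5.94, 5.53, 5.45 and 5.86 in WT and 6.56, 6.39 and 5.89 in Lck-/-. Of these only Lck-/- 3 lay within the WT range, and the difference was 0.59 (SE 0.21, limma adjusted p = 0.667). Fyn, the kinase that SAP recruits, differed by -0.02 (SE 0.16), and its values of 1.80, 1.71, 1.29 and 1.66 in WT enclosed the 1.53, 1.72 and 1.53 of Lck-/- (Fyn, like Slamf9 and Rasa1, is named outside the rule). Slamf9, a relative of the family without switch motifs, read -2.43, -2.82, -2.99 and -2.48 in WT and -3.00, -4.56 and -4.07 in Lck-/-, at the dim end of the array. Besides Slamf9, Rasa1, a brake on Ras, was the only partner whose groups were separate, with a difference of 0.29 (SE 0.14). The groups were separate for 7.29% of all genes.

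Markers of other cells were measured because NK cells carry Cd244, Slamf6, Slamf7 and Sh2d1a too. All 10 NK markers were tested and leaned to Lck-/-, by 1.00 in the median, where 59.2% of all genes were positive, and 0 passed. Several were dim. Ncr1, Klrb1c and Fcgr3 were well above background on 5 of 7 arrays each, and Klre1 and Klri2 on 6, so the median and the log2 means lean partly on values near background. The mean of the 9 with a value on every array stood at -0.65, -0.09, -0.91 and 1.65 relative to the WT mean on WT 1 to WT 4, and at 0.45, 2.12 and 0.63 on Lck-/- 1 to Lck-/- 3. Their summed linear level ran from 1.06 to 6.11 in WT and from 2.42 to 8.90 in Lck-/-, in units of the 75th percentile. Those with the brightest probes, Fcer1g and Tyrobp, differed by 0.20 (SE 0.54, without its outlier spot on WT 3) and 0.95 (SE 0.62). The 2 arrays highest in NK markers, Lck-/- 2 and WT 4, were also the 2 highest in Sh2d1a. For Slamf7, WT 4 was the highest WT array, and all 3 Lck-/- arrays were level. For Cd244 both Lck-/- 2 and WT 4 lay below the WT 3 value of 2.51. On the Slamf6 switch-motif probe Lck-/- 2 was the lowest array and WT 4 the lowest of WT. On the downstream Slamf6 probe neither was the lowest of its group. The part of NK cells in these values was not tested.

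Other lists gave the following. The B cell gene Ms4a1 was not well above background on any array and Pax5 was on 1, while Cd79b and Cd79a differed by 0.53 (SE 0.24) and 0.48 (SE 0.30). Of 8 myeloid and dendritic cell genes 7 differed upwards, by 0.57 in the median, where 59.2% of all genes were positive. Against 5.04% of all genes, 2 of these 8 were higher at an unadjusted p under 0.05, and 0 passed. These 2 were Cd68, with a difference of 0.51 (SE 0.14) and no overlap between the groups (its spot on WT 3 was left out as an outlier), and Adgre1, with 0.71 (SE 0.26), both named after their values were seen. The Adgre1 probe was dim, from -5.23 to -3.76, and well above background on only 4 of 7 arrays. Summed levels of the 6 with every value ran from 8.03 to 15.2 in WT and from 11.7 to 13.8 in Lck-/-. Those with the brightest probes, Itgam and Csf1r, differed by 0.21 (SE 0.24) and 0.13 (SE 0.63). Cd4 differed by -0.05 (SE 1.13), with a high array in each group. It read 5.47 on WT 3 against 1.69 to 2.05 on the other WT arrays. In Lck-/- it read 3.67 on Lck-/- 3 and 1.78 on Lck-/- 2, with the spot on Lck-/- 1 left out as an outlier. All 10 mitosis genes read lower on average in Lck-/-, by a median of -1.05, while 59.2% of all genes were positive. Against 2.02% of all genes, 8 of these 10 were lower at an unadjusted p under 0.05, and 0 passed. Those with the brightest probes, Birc5 and Cdca8, differed by -0.89 (SE 0.37) and -0.89 (SE 0.39). The mitosis mean stood at 0.75, -0.51, 0.37 and -0.61 on WT 1 to WT 4 and -0.50, -1.40 and -1.48 on Lck-/- 1 to Lck-/- 3, all relative to the WT mean. The Slamf6 switch-motif probe had the same array at the top, WT 1, and the same 2 arrays at the bottom, Lck-/- 2 and Lck-/- 3. The downstream Slamf6 probe did not, with WT 2 at the top and Lck-/- 1 and WT 3 at the bottom. Whether cell division bears on Slamf6 was not tested.

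**Figure D4:**
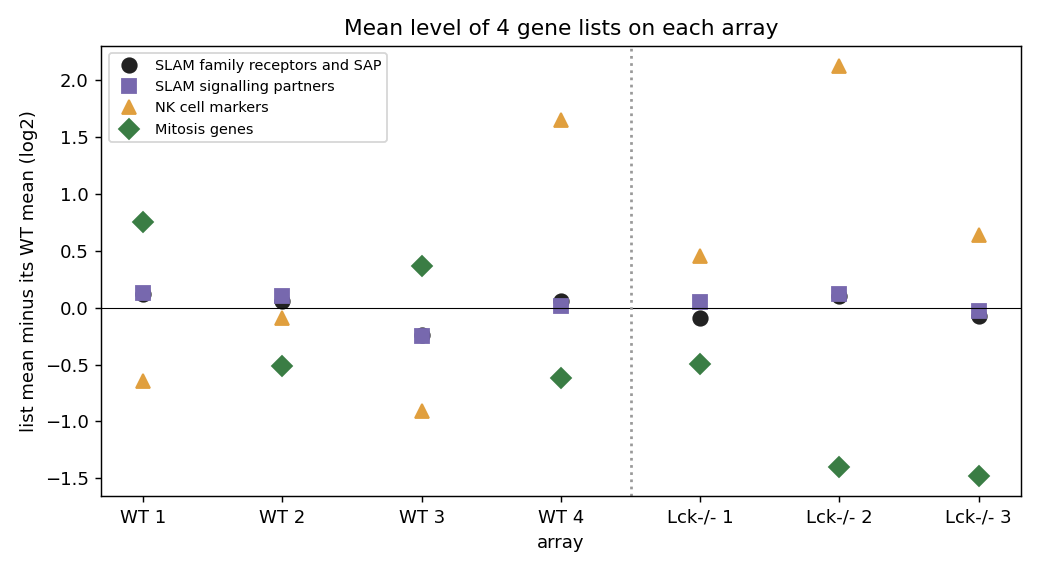
Mean log2 level of 4 gene lists on each array, relative to the mean of the 4 WT arrays; the dotted line parts WT from Lck-/-. The mean of the 6 members with a value on every array stays between -0.24 and 0.12. Means of NK markers range from -0.91 to 2.12 and those of mitosis genes from -1.48 to 0.75. The member mean leaves out Cd48 and Cd244 and combines genes with differences of both signs, so it does not show that single members were stable. Before centring, Slamf7 ranged from -0.34 to 1.03 and Sh2d1a from 2.90 to 4.38.

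The genes whose pattern was most like a member were found by Pearson's r over the 7 arrays among 15689 genes, as a description. For Slamf6 they included Zfp41 (r = 0.992) and Gstt3 (0.986). Slamf7 was followed most closely by Tgm2 (r = 0.977), Aplp1 (0.976) and Rergl (0.973), and Slamf1 by Gm7935 (0.995), Arhgef3 (0.993) and Tyw1 (0.991). For Ly9 the closest were Tmem170 (r = 0.996), Setd7 (0.991) and Cdc37l1 (0.991), and for Cd84 Cmas (0.996), Tspyl3 (0.985) and 1500011B03Rik (0.983). Sh2d1a was matched by Ankrd49 (r = 0.996), Pdcd2l (0.988) and Mphosph8 (0.987). No member was among the 3 closest genes of another member. Cd48 and Cd244 lacked a value on 1 array each and were not compared. With 7 points that share slide, scaling and group, high values can arise among 15689 genes without any link between them. How high r would reach for other patterns was not tested.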

How the data were processed

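The members and gene lists were chosen with earlier results of these data known. Per the file headers, the deposited intensity of each spot came from Agilent Feature Extraction 10.7.3.1, with background subtraction and detrending inside each array and probe coordinates on mm9. The deposited value table holds log2 values, made in a way that labels and headers leave unstated beyond the name limma in the submitters' processing notes. It served as an alternative. The processed intensity was put on a log2 scale, less the 75th percentile of each array. Outlier-flagged spots were dropped, spots of a probe were averaged, and probes well above background on at least 3 of 7 arrays were kept. Each gene was read by its probe of highest mean, in 16460 genes named through RefSeq GRCm38.p6 accessions or symbols, or else by the files. Of 55681 probes, 18938 had no gene name and were left out. Groups were compared with limma 3.58.1 in R 4.3.3 (two-sided, Benjamini-Hochberg adjustment, threshold 0.05), tested on simulated data. Named were all members, the 4 brightest partners, the 2 brightest genes of other lists, interval genes and the 3 genes most like a member. Some items that these rules name are not reported here. Same-numbered samples did not deviate together (correlations 0.09, 0.05 and -0.02 over 15690 genes), so numbers were not taken as pairs. The number of arrays limits the precision.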

Additional observations from a re-analysis of the deposited data

Results flagged for a closer look

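Of 65 genes and probe values tested in the WT group of 4, 4 had 1 array far from the rest, by the gap to the nearest array as a share of the range (Dixon's test). Chance flags about 1 in 20 such groups. Cd4 read 5.47 on WT 3 against 1.69, 2.05 and 1.90, a gap of 0.903 of the range. On Lck-/- 1 the Cd4 spot was marked as a non-uniform outlier and left out. Slamf8, a relative of the family, read -2.09 on WT 2 against -3.56, -3.57 and -3.42, a gap of 0.895. The NK marker Ncr1 read -2.19 on WT 4 against -4.50, -4.34 and -4.20, a gap of 0.867, and was well above background on 5 of 7 arrays. The NK marker Klra1, whose probe the files list as Klra22, read 0.71 on WT 4 against -2.37, -2.25 and -2.72, a gap of 0.862.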

How the results depend on the processing

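No member and no partner passed the threshold in any of 20 alternatives, which covered scaling, background correction, the deposited values, filters, blocks, weights, outlier spots kept (chosen after seeing the data) and arrays left out. In these, and with their other probes, Slamf6, Slamf1, Slamf7 and Cd48 kept their direction, from -1.21 to -0.48, -0.65 to -0.28, 0.48 to 0.81 and 0.28 to 0.59. The lowest adjusted p of any member was 0.182 (limma), for Slamf6 without WT 4 and Lck-/- 1. The count of genes past the threshold was 0 except for 2 without WT 1 and 55 without WT 4 and Lck-/- 1, and ranged from 0 to 2 over single arrays left out. With the array median as reference Ly9 turned to -0.084 and Cd84 to -0.19. Cd84 was also negative with the deposited values (-0.021), with the mean of its probes (-0.020) and with its second probe (-0.060). With 1 array left out, Ly9 ranged from -0.023 (without WT 3) to 0.21, Cd84 from -0.12 (without WT 3) to 0.13, Cd244 from -0.0030 (without Lck-/- 3) to 0.52 and Sh2d1a from -0.037 (without Lck-/- 2) to 0.41. Turns within these ranges were Cd84 without Lck-/- 3 (-0.06), Ly9 without Lck-/- 2 (-0.0041) and Sh2d1a without WT 2 (-0.02). With the replicate number as a block, which leaves WT 4 without a partner, Cd244 was -0.0046, Slamf6 -0.97 (SE 0.20), and 0 genes passed. Without Lck-/- 3 no member had an unadjusted p under 0.05, against 2 with all arrays, while the share of all genes was 4.51% against 7.06%. The cause of these turns was not tested. Outlier spots decide the size for Cd244 and Cd48.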
